A study of Homo sapiens with 6 samples.

Results

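Long intergenic noncoding RNAs are the subject here, taken as the genes whose symbol begins with LINC and whose raw counts summed to at least 300 over the 6 libraries. Of 60564 genes listed, 1852 carried such a symbol, 770 of these had at least 1 count, and 126 reached the limit. The genes were thus chosen by their summed counts over all libraries, a measure of level, and not by the difference between the groups. A high level in 1 group could still carry a gene over the limit, and 1 of the 126 had under 150 counts over the CNTNAP2-203 OE libraries and 4 had under 150 over the control libraries. Just inside the limit lay LINC00115 with 302 counts, LINC00888 with 305 and LINC02454 with 311. Just outside lay LINC01347 with 288 counts, LINC00685 with 281 and LINC00959 with 280.

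The libraries came from CAL27, a human line established from a tongue squamous cell carcinoma. The cells of the group CNTNAP2-203 OE (overexpression) had been infected with a lentivirus carrying CNTNAP2-203, a transcript of CNTNAP2, and the control cells with a control vector whose sample descriptions name EGFP. Both groups had been selected with puromycin at 5 μg/ml for 2 weeks, and each held 3 libraries of ribosomal-RNA-depleted total RNA. Nothing in the labels ties the 3 libraries of a group to separate cultures, so each p measures only how far these libraries spread, which may be technical spread. The series title links CNTNAP2-203 to EGFR and to E2F1 activity in oral squamous cell carcinoma.

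Long intergenic noncoding RNAs are transcribed by RNA polymerase II from loci between protein-coding genes, are usually spliced, and are as a rule less abundant and more confined to particular cell types than messenger RNAs. Some act at their own locus on neighbouring genes, some bind proteins or other RNAs elsewhere in the cell, and some are turned over rapidly by the nuclear RNA exosome. In squamous carcinomas several are driven by the squamous transcription factor TP63 or feed into EGFR and ERK signalling. A symbol of this series is a name given by a nomenclature committee, and some such loci were later found to encode a small protein.

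Total counts were 42412703, 41005050 and 36843190 in CNTNAP2-203 OE replicates 1, 2 and 3, and 39255338, 38769375 and 41754789 in control replicates 1, 2 and 3. CNTNAP2 itself had 140022, 156055 and 119280 counts in the CNTNAP2-203 OE libraries, against 0, 3 and 4 in the controls, which fits the labels. CNTNAP2-203 OE replicate 3 stood apart: the root mean square distance on the log2 scale was 0.720 and 0.740 to the other libraries of its group, 0.565 between those, and 0.570 to 0.614 between controls. Markers of squamous epithelium, a list that includes KRT5 and TP63, summed to 14725 to 17271 CPM (counts scaled to library size and by TMM, a factor that corrects for library composition) in CNTNAP2-203 OE libraries and to 14564 to 16889 CPM in controls. Within that sum its 10 genes did not move together: 7 had a negative log2 fold change (CNTNAP2-203 OE over control) and 3 a positive one. None passed an edgeR adjusted p of 0.05, 5 had an unadjusted p under 0.05 and 2 passed with DESeq2. Over all genes tested by each method these shares were 1.39%, 17.2% and 7.11%. KRT17 (log2 fold change -0.57) and DSG3 (-0.64) were below the controls in every CNTNAP2-203 OE library, and KRT5 (0.34) and EPCAM (0.29) were above them. All of these were named after their values were seen. In CNTNAP2-203 OE libraries fibroblast markers summed to 40.1 to 43.0 CPM, leukocyte markers to 57.4 to 66.2 CPM and endothelial markers to 8.0 to 11.7 CPM. In controls they summed to 40.9 to 46.0 CPM, 53.2 to 72.9 CPM and 6.31 to 9.78 CPM. Most of each of these sums came from a few genes. The fibroblast marker COL1A1 averaged 25.7 CPM in CNTNAP2-203 OE libraries and 29.6 CPM in controls, and LUM 11.3 and 9.73 CPM. In the same order, the leukocyte markers CD68 and CD14 averaged 33.9 and 31.1 CPM and 24.96 and 28.08 CPM. The endothelial marker CDH5 averaged 7.94 and 6.04 CPM. Only THY1, a fibroblast marker, and KDR, an endothelial marker, had 0 counts in all 6 libraries. These marker genes were named after their values were seen. The RNA came from whole cultures, in which fewer cells with a transcript and less of it per cell cannot be told apart.

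The sequences below show the start regions of the 2 LINC genes with an edgeR adjusted p under 0.05, LINC00963 and LINC02035, and of LINC01133, which had the lowest log2 fold change. All 3 were lower in CNTNAP2-203 OE, and no higher gene is shown. They are the RefSeq promoters on build GRCh38.p14, 250 bases before to 50 bases after the annotated start, read along the transcribed strand. Capitals mark a motif: TGAGTCA, an AP-1 site on the reverse strand of TGACTCA, in LINC00963, and TGATGTAA, a match to the ATF4 composite element TGATGNAA, in LINC01133. They lie at chr9:129488410-129488709 for LINC00963, chr3:122886263-122886562 for LINC02035 and chr1:159960974-159961273 for LINC01133, all on the plus strand.
LINC00963: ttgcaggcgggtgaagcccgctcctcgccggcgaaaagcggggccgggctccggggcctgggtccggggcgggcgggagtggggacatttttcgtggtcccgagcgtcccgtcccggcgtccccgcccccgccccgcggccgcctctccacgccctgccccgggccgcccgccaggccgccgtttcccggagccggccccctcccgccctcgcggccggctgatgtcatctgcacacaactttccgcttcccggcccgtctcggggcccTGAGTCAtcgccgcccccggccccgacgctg
LINC02035: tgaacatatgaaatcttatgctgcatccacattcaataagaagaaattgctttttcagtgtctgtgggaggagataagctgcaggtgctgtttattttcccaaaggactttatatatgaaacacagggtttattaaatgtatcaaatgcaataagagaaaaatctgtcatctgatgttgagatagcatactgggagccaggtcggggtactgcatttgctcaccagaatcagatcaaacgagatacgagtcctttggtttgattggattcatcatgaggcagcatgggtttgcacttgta
LINC01133: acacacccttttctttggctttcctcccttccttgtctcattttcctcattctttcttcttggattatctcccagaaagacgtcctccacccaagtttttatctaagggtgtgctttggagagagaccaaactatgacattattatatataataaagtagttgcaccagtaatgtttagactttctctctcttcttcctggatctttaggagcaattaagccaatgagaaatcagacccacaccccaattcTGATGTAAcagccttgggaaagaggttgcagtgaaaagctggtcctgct
The start region of LINC00963 was 78.0% G and C, against 39.3% for LINC02035 and 41.3% for LINC01133. Searches covered 3 kinds of motif on both strands, with no overlap between matches in these windows: the E2F sites TTTCCCGC or TTTGGCGC, the ATF4 element TGATGNAA and the AP-1 site TGACTCA. Of the 126 LINC genes, 96 matched a promoter in the table of 35116. An AP-1 site was present in 11 of these 96 (11.5%), against 4.95% of all promoters. The ATF4 element was present in 5 (5.21%), against 3.62%, and an E2F site in 3 (3.13%), against 2.27%. These matches describe the letters in the windows only.

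Several LINC genes share long stretches, and reads from such stretches cannot be assigned to 1 of them with certainty. LINC01001 on chromosome 11 and LINC01002 on chromosome 19 were 98.475% identical over 918 bases. LINC01123 and LINC01106, both on chromosome 2, were 99.512% identical over 2256 bases. Their windows of 100 bases, taken from GENCODE 29 transcripts where the aligned copies differ most, hold 7 of the differing bases, marked by capitals.
LINC01123: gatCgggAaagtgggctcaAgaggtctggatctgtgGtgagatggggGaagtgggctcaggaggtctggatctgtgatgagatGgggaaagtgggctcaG
LINC01106: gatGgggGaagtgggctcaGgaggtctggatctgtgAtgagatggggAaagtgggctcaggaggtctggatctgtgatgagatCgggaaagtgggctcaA
Across the 126 genes, 25 had a stretch of at least 200 bases with at least 98% identity in a gene elsewhere, and 11 had it in another of the 126.

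The 126 genes lay on 23 chromosomes, with 15 on chromosome 1, 11 each on chromosomes 2 and 3, and 7 on X. GENCODE 29 classes 90 of them as lincRNA, 16 as processed transcripts, 9 as antisense, 3 as bidirectional promoter lncRNA, 5 as transcribed pseudogenes of one kind or another and 3 as protein coding. The protein-coding loci are LINC00094, listed there as BRD3OS, LINC00116, listed as MTLN, and LINC01125, listed as C2orf92. LINC01125 was named after its values were seen. Merged exons came to between 626 and 27605 bases, with a median of 3026, and 14 of the genes had a single exon. The span of 78 of the 126 overlapped another annotated gene. In 56 an exon overlapped an exon of another gene, and in 23 an exon of a protein-coding gene. The library kit does not mark the strand, so wherever genes of opposite strands overlap, reads of the 2 strands cannot be told apart.

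Levels per gene length were low. FPKM, a count of fragments divided by gene length and library depth, averaged over the 6 libraries, ran between 0.129 and 8.57 with a median of 0.935, and 55 of the 126 reached 1. The 10 genes with the most counts held 33.2% of all counts of the 126. LINC01160 had the highest level averaged over the 6 libraries, at 7.51 ± 0.114 FPKM in CNTNAP2-203 OE libraries and 9.62 ± 0.308 FPKM in controls (SD, n = 3 each, as for every ± below). It shares a stretch of 512 bases at 98.633% identity with NNT-AS1 on chromosome 5. Next came LINC01123 with 7.53 ± 0.554 FPKM in CNTNAP2-203 OE libraries and 7.04 ± 1.90 FPKM in controls. LINC01001 had 5.67 ± 1.43 FPKM in CNTNAP2-203 OE libraries and 7.89 ± 0.134 FPKM in controls, and LINC00958 had 6.09 ± 0.921 FPKM in CNTNAP2-203 OE libraries and 6.89 ± 0.854 FPKM in controls. LINC00958 is a transcript reported as raised in oral squamous cell carcinoma. LINC02541 (5.44 FPKM over all 6 libraries), LINC00294 (4.91 FPKM), LINC02001 (4.38 FPKM), LINC01578 (4.17 FPKM), LINC01106 (4.09 FPKM) and LINC01503 (3.27 FPKM) completed the 10 highest. In this order the ranges of mean ± SD overlapped between LINC01160 and LINC01123 in CNTNAP2-203 OE, where LINC01123 had the higher mean, but not in control. They overlapped between LINC01123 and LINC01001 in both groups, and between LINC01001 and LINC00958 in CNTNAP2-203 OE but not in control.

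Together the 126 genes had 982, 1017 and 940 CPM of the raw totals in CNTNAP2-203 OE replicates 1, 2 and 3, against 1101, 1067 and 1112 in control replicates 1, 2 and 3. All CNTNAP2-203 OE libraries were below all controls. The means were 979.8 ± 38.3 CPM in CNTNAP2-203 OE libraries and 1093 ± 23.7 CPM in controls. No p is given for this sum, since the genes were chosen with earlier results known. A large part of the sum came from a few abundant genes. LINC00969 had 1881, 2211 and 1521 raw counts in the CNTNAP2-203 OE libraries, against 2241, 2115 and 2386 in the controls. LINC00963 had 1629, 1367 and 1330 raw counts in the CNTNAP2-203 OE libraries, against 2274, 2151 and 2416 in the controls. LINC00969 is listed in GENCODE as MUC20-OT1, shares a near-identical stretch with the pseudogene SDHAP1, and was named after its values were seen.

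Gene by gene, few of the 126 differed between the groups by an adjusted p. With edgeR's quasi-likelihood test and Benjamini-Hochberg adjustment over all 18786 tested genes, 2 of the 126 passed an adjusted p of 0.05, both lower in CNTNAP2-203 OE (1.59%). Over all tested genes the share was 1.39%, with 0.596% lower and 0.798% higher, and among other genes with at least 300 counts it was 1.76%. The share of LINC genes past the threshold was therefore near the background. At an unadjusted p under 0.05 there were 20 (15.9%), 9 higher and 11 lower, against 17.2% of all tested genes. DESeq2 passed 5 of the 126, 2 higher and 3 lower, against 7.11% of the genes to which it gave an adjusted p.

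The 3 libraries of one group lay all above or all below those of the other in 30 of the 126 (23.8%), against 26.5% of all tested genes and 29.7% of other genes with at least 300 counts. Of these, 12 were higher in CNTNAP2-203 OE (9.52%, background 13.7%) and 18 lower (14.3%, background 12.8%). The log2 fold change, CNTNAP2-203 OE over control, was negative for 77 of the 126 (61.1%) and for 50.4% of all tested genes. Its median was -0.070, against -0.0038 over all tested genes and 0.0072 over other genes with at least 300 counts. It ran between -1.02 and 0.86, with the middle 50% of genes between -0.28 and 0.14. Replicates spread by a median coefficient of variation of 18.7% within CNTNAP2-203 OE and 14.5% within control.

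**Figure D1:**
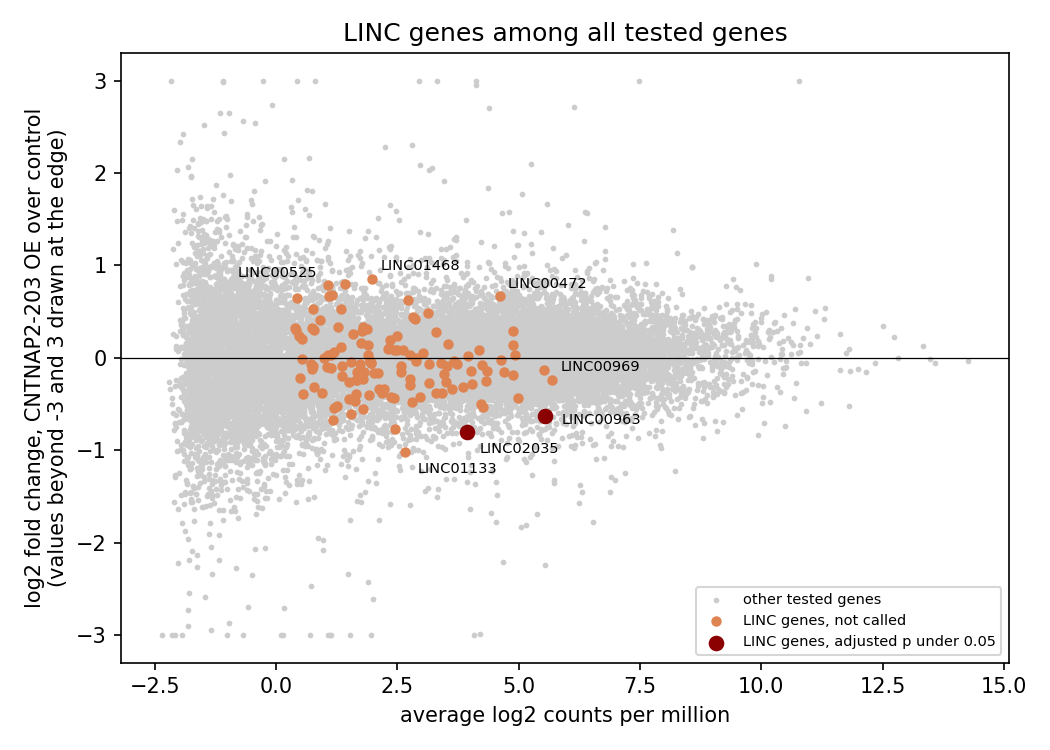
Log2 fold change (CNTNAP2-203 OE over control, vertical axis) against average log2 CPM (horizontal axis) for each tested gene. Grey points are other genes, orange points LINC genes, and dark red points the 2 LINC genes with an adjusted p under 0.05, LINC00963 and LINC02035; LINC genes lie between -1.02 and 0.86, inside the cloud of other genes of the same level.

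LINC00963 was the most clearly lower LINC gene. This transcript, first described in the progression of prostate cancer and linked there to EGFR signalling, lies on chromosome 9 (129483451 to 129513686, plus strand, GRCh38), has 13171 bases of exon and overlaps no other annotated gene. It had 38.5, 33.1 and 38.0 CPM in CNTNAP2-203 OE replicates 1, 2 and 3, against 57.3, 54.5 and 57.2 CPM in control replicates 1, 2 and 3. Every CNTNAP2-203 OE library was below every control by more than the spread within either group. The means of 36.5 ± 2.98 CPM in CNTNAP2-203 OE libraries and 56.3 ± 1.6 CPM in controls gave a log2 fold change of -0.63 (SE 0.101), a ratio of 0.648, with an edgeR adjusted p of 0.0374. The call was lost without any 1 of CNTNAP2-203 OE replicates 1 and 2 and control replicates 1, 2 and 3, with edgeR adjusted p-values of 0.110, 0.0868, 0.124, 0.150 and 0.187, while the log2 fold change stayed between -0.66 and -0.56. The AP-1 motif printed above lies in its RefSeq start region, which falls inside the GENCODE span.

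LINC02035 was the other. It is a single exon of 5476 bases on chromosome 3 (122886941 to 122892416, plus strand) that overlaps no other annotated gene. It had 12.4, 11.5 and 9.66 CPM in CNTNAP2-203 OE replicates 1, 2 and 3, against 19.3, 17.9 and 21.3 CPM in control replicates 1, 2 and 3. The groups did not overlap. The means were 11.2 ± 1.39 CPM in CNTNAP2-203 OE libraries and 19.5 ± 1.69 CPM in controls, with a log2 fold change of -0.80 (SE 0.144), a ratio of 0.574 and an edgeR adjusted p of 0.0457. Leaving out CNTNAP2-203 OE replicate 1 or 2 or control replicate 1, 2 or 3 gave edgeR adjusted p-values of 0.112, 0.0993, 0.140, 0.162 and 0.204, while over all single libraries left out the log2 fold change stayed between -0.88 and -0.71. Its RefSeq start lies upstream of the GENCODE span.

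**Figure D2:**
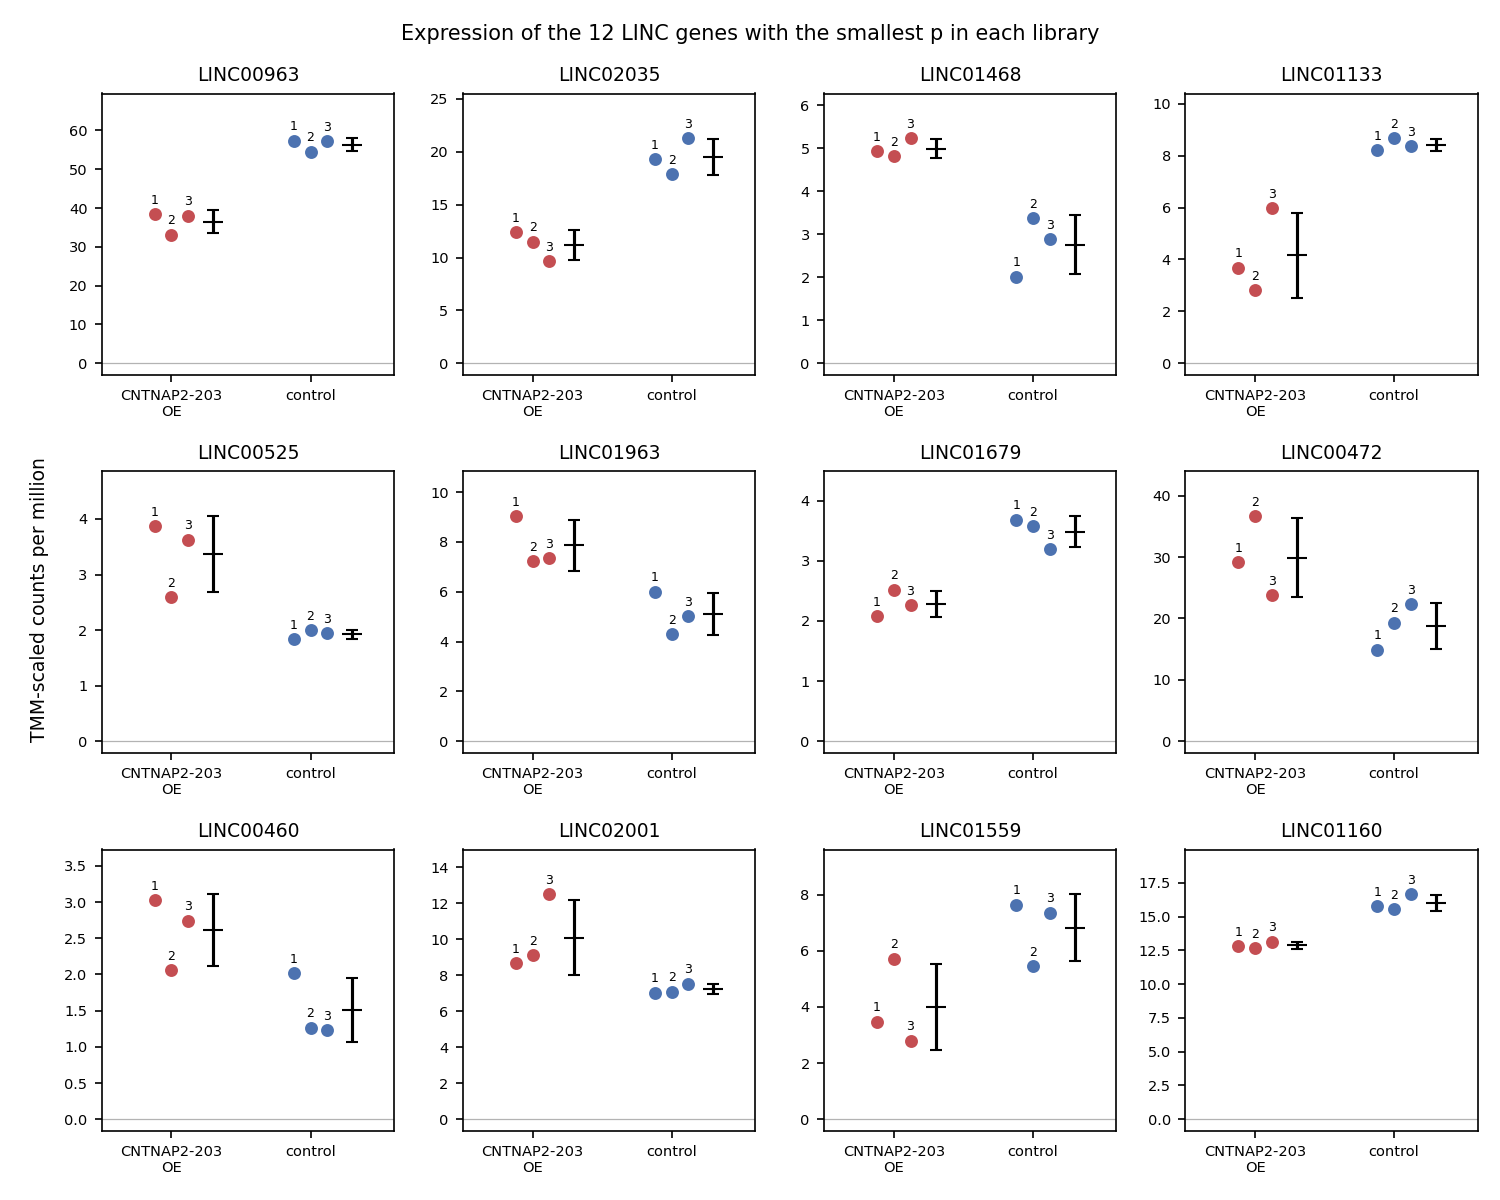
TMM-scaled CPM (vertical axes, starting near 0) of the 12 LINC genes with the smallest edgeR p, by group. Each numbered point is 1 library and carries its replicate number, and the bar beside the points gives the mean and SD of 3 libraries; the groups do not overlap for LINC00963 (36.5 CPM in CNTNAP2-203 OE, 56.3 CPM in control) but do for LINC01559.

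Other lower genes missed the threshold. LINC01133, a transcript of chromosome 1 reported as raised in lung squamous cell carcinoma and as binding a splicing factor in colorectal cancer, had 3.68, 2.81 and 5.97 CPM in CNTNAP2-203 OE libraries, against 8.22, 8.66 and 8.36 CPM in controls. All CNTNAP2-203 OE libraries were below all controls, and replicate 3 was nearest to them. The log2 fold change of -1.02 (SE 0.264) was the lowest of the 126, with an edgeR adjusted p of 0.113, and it was -1.37 with an edgeR adjusted p of 0.0164 without CNTNAP2-203 OE replicate 3. DESeq2 gave LINC01133 an adjusted p of 0.00855. LINC01679 had 2.08, 2.52 and 2.26 CPM in CNTNAP2-203 OE libraries, against 3.68, 3.57 and 3.20 CPM in controls (log2 fold change -0.61, edgeR adjusted p 0.156). LINC01559, named after its values were seen, had 3.47, 5.71 and 2.80 CPM in CNTNAP2-203 OE libraries, against 7.64, 5.45 and 7.36 CPM in controls. Here CNTNAP2-203 OE replicate 2 lay above control replicate 2.

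The remaining genes among the 10 lowest with groups that did not overlap were LINC00173 (log2 fold change -0.52), LINC01002 (-0.51), LINC01138 (-0.48), LINC01748 (-0.46), LINC01001 (-0.44) and LINC01176 (-0.43), with edgeR adjusted p-values between 0.223 and 0.419. LINC01001 and LINC01002 are the near-identical pair described above, but their sequence is shared more widely. LINC01001 had a near-identical stretch in 16 genes elsewhere, the longest 2056 bases at 99.27% identity on chromosome 1. LINC01002 had one in 25 genes and LINC01138 in 5. LINC01001 had 29.2, 31.3 and 20.0 CPM in CNTNAP2-203 OE replicates 1, 2 and 3, against 36.3, 35.7 and 37.2 CPM in controls. LINC01002 had 17.9, 17.9 and 10.5 CPM in CNTNAP2-203 OE replicates 1, 2 and 3, against 19.7, 21.4 and 24.6 CPM in controls. In both, CNTNAP2-203 OE replicate 3 was the lowest library, and because they share sequence their values are not independent. For the pair LINC01123 and LINC01106 the log2 fold changes were 0.14 and 0.014. LINC01160, the most abundant per length, had 12.8, 12.7 and 13.1 CPM in CNTNAP2-203 OE libraries, against 15.8, 15.5 and 16.6 CPM in controls (log2 fold change -0.31, SE 0.115, edgeR adjusted p 0.222). It lies within the span of RAP1A, a gene of the opposite strand whose log2 fold change was 0.31 (edgeR adjusted p 0.238).

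No LINC gene passed the threshold upward with edgeR. LINC01468 had the highest log2 fold change, 0.86 (SE 0.218, edgeR adjusted p 0.108), with 4.94, 4.82 and 5.23 CPM in CNTNAP2-203 OE libraries, against 2.02, 3.37 and 2.89 CPM in controls. DESeq2 gave it an adjusted p of 0.0222. GENCODE lists this chromosome 10 gene as LNCAROD, named as an activating regulator of DKK1, which encodes a secreted inhibitor of WNT signalling. DKK1, named after its values were seen, starts 441113 bases from LINC01468 and had 88.3, 92.7 and 104 CPM in CNTNAP2-203 OE libraries, against 35.8, 34.9 and 34.4 CPM in controls. The log2 fold change of DKK1 was 1.44 (SE 0.102, edgeR adjusted p 0.00234), and it passed the threshold under all 13 alternative fits of the 6 libraries or 5 of them. Both genes were higher in every CNTNAP2-203 OE library than in every control, and whether one bears on the other was not tested.

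LINC00472, described as a tumour suppressor in breast cancer, had 29.2, 36.6 and 23.8 CPM in CNTNAP2-203 OE libraries, against 14.9, 19.3 and 22.3 CPM in controls. The lowest CNTNAP2-203 OE library was just above the highest control. The log2 fold change was 0.66 (SE 0.202), with adjusted p-values of 0.157 by edgeR and 0.0460 by DESeq2. Its span on chromosome 6 (71344344 to 71420769, minus strand) holds the microRNA genes MIR30A and MIR30C2, shown here with the seed, bases 2 to 8, in capitals, from RefSeq on GRCh38.p14. The 5p arms of the pair share a seed.
hsa-miR-30a-5p: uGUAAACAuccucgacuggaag
hsa-miR-30c-5p: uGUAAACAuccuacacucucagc
MIR30A had 0 counts in all 6 libraries and MIR30C2 had 1 in each, so these libraries give no measure of the microRNAs themselves.

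The other genes among the 10 highest with groups that did not overlap were LINC00525 (log2 fold change 0.80), LINC00460 (0.79), LINC02012 (0.68), LINC01963 (0.62), LINC02009 (0.53), LINC02001 (0.48), LINC00116 (0.45) and LINC00346 (0.42), with edgeR adjusted p-values between 0.125 and 0.293. LINC00525 had 3.87, 2.59 and 3.63 CPM in CNTNAP2-203 OE libraries, against 1.84, 2.00 and 1.94 CPM in controls. It lies inside PKD1L1 on the opposite strand, which had only 0.254 ± 0.304 CPM in CNTNAP2-203 OE libraries and 0.291 ± 0.156 CPM in controls. LINC01963 had 9.02, 7.21 and 7.34 CPM in CNTNAP2-203 OE libraries, against 6.0, 4.31 and 5.02 CPM in controls. LINC02001 had 8.67, 9.13 and 12.5 CPM in CNTNAP2-203 OE libraries, against 7.03, 7.09 and 7.53 CPM in controls.

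**Figure D3:**
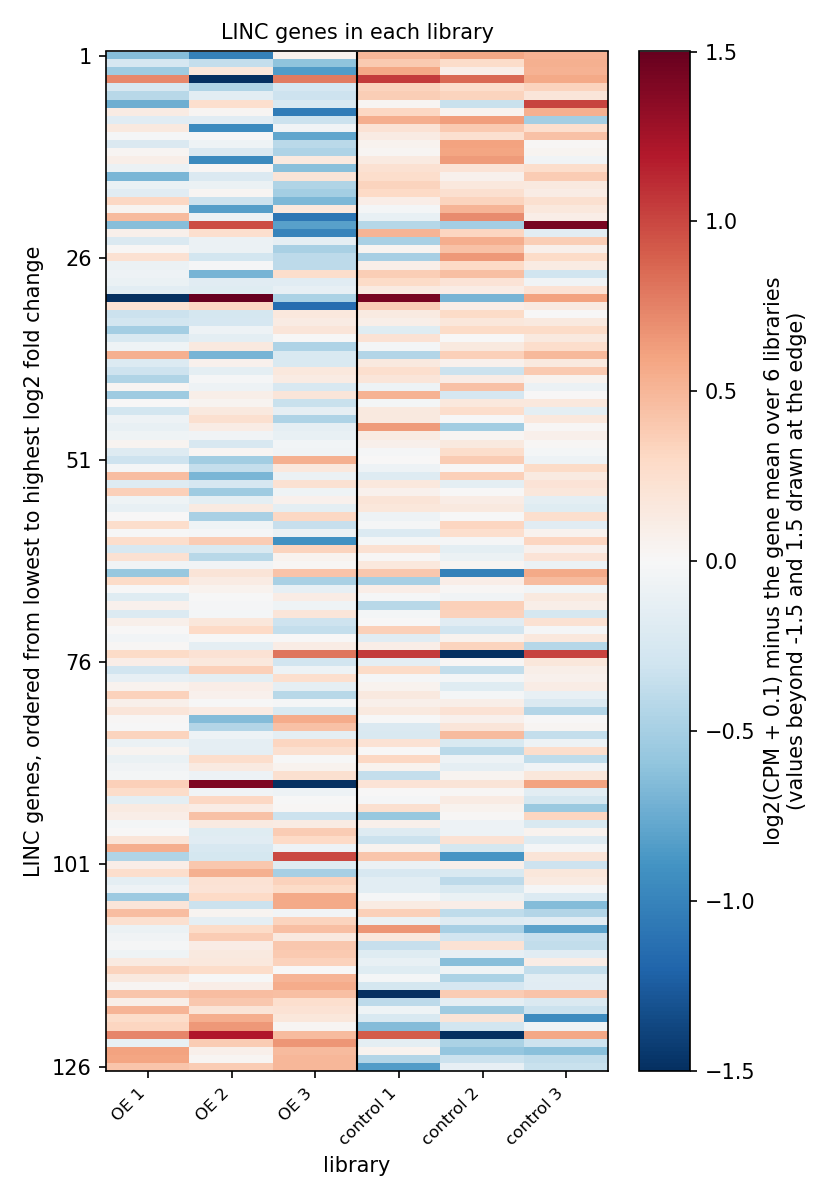
Each row is 1 of the 126 LINC genes, ordered from the lowest to the highest log2 fold change, and each column 1 library, CNTNAP2-203 OE on the left and control on the right. Colour gives log2(CPM + 0.1) minus the mean of the gene over the 6 libraries, from blue (lower) to red (higher); most rows are pale, and a few hold a single dark cell for 1 library.

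Of lincRNAs tied to squamous or oral carcinoma, 23 were listed, 18 were in the table under those symbols, 14 were tested and 9 are among the 126. None of the 14 passed with edgeR, 4 had an unadjusted p under 0.05 and 1 passed with DESeq2. The shares over all tested genes, against which this and the lists below are to be read, were 1.39%, 17.2% and 7.11%. Their median log2 fold change was -0.20, with 10 negative and 4 positive, against -0.0038 over all tested genes. LINC00460, which drives epithelial to mesenchymal change in head and neck carcinoma, had 3.02, 2.06 and 2.74 CPM in CNTNAP2-203 OE libraries, against 2.02, 1.27 and 1.23 CPM in controls. LINC01503, a TP63-driven transcript that feeds ERK signalling in squamous carcinoma, starts 151151 bases from LINC00963 on the same strand of chromosome 9. It had 15.7, 15.9 and 23.5 CPM in CNTNAP2-203 OE libraries, against 21.8, 16.8 and 19.4 CPM in controls, groups that overlap (log2 fold change -0.078, SE 0.190, edgeR adjusted p 0.865). LINC00958 had a log2 fold change of -0.13 (edgeR adjusted p 0.709).

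LINC00511 had 19.5, 35.1 and 42.2 CPM in CNTNAP2-203 OE libraries, against 28.0, 26.4 and 24.6 CPM in controls. CNTNAP2-203 OE replicate 1 was the lowest of the 6 libraries and replicate 3 the highest, so the log2 fold change of 0.29 (SE 0.259) says little. LINC01116 was likewise spread within CNTNAP2-203 OE, at 3.71, 4.24 and 10.3 CPM in its 3 libraries, against 6.83, 2.71 and 5.87 CPM in controls. LINC01116 had a near-identical stretch in 30 genes elsewhere, the longest 311 bases at 99.035% identity. LINC00662 (log2 fold change -0.28), LINC01305 (-0.22) and LINC00319 (-0.68, SE 1.12) also overlapped between the groups. Of the 5 lincRNAs listed for EGFR, ERK or cAMP signalling 3 were tested and none passed with edgeR or DESeq2. They had a median log2 fold change of -0.078 and 1 had an unadjusted p under 0.05. LINC-PINT, a p53-induced transcript, was the 1 tested of 4 listed for p53, with 3.47, 4.19 and 2.00 CPM in CNTNAP2-203 OE libraries, against 2.42, 2.43 and 3.24 CPM in controls (log2 fold change 0.26, edgeR adjusted p 0.689).

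Of 9 loci listed for a small protein 4 were in the table and 3 were tested, and none passed with edgeR or DESeq2 or had an unadjusted p under 0.05. LINC00116 encodes mitoregulin, a peptide of the inner mitochondrial membrane, and had 7.65, 6.90 and 9.92 CPM in CNTNAP2-203 OE libraries, against 6.78, 4.96 and 6.20 CPM in controls. Its groups did not overlap, though the lowest CNTNAP2-203 OE library and the highest control differed by less than the SD of either group. LINC00467 had a log2 fold change of 0.082 (edgeR adjusted p 0.872). LINC00094 had 27.3, 12.2 and 18.6 CPM in CNTNAP2-203 OE libraries, against 17.2, 25.2 and 21.6 CPM in controls, and its exons overlap BRD3 on the opposite strand, for which the log2 fold change was -0.075. A list of 4 loci that host a microRNA or circular RNA did not hold LINC00472, whose span is described above. Of the listed loci none is among the 126, 2 were tested and none passed with edgeR or DESeq2, though 1 had an unadjusted p under 0.05.

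The transcribed neighbourhood was then compared. For each LINC gene the protein-coding gene with the nearest start was taken, at a median distance of 40349 bases and within 1000 bases for 23. Among 96 such neighbours tested, none passed with edgeR, 21 had an unadjusted p under 0.05 (17.2% of all tested genes) and 8 passed with DESeq2 (7.11% of the genes to which it gave an adjusted p). In 99 pairs of a LINC gene and its tested neighbour, 55 moved with the same sign, and across these pairs Pearson's r of the log2 fold changes was 0.068 and Spearman's rho 0.070. The pairs share the same 6 libraries and some overlap, so these are descriptions across genes. For the 20 tested pairs with starts within 1000 bases, 9 had the same sign and Pearson's r was -0.43. LINC01560 and ZNF41, a pair named after its values were seen, had log2 fold changes of 0.33 and -1.60, the point farthest to the left in the plot of neighbours.

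LINC00963 had NTMT1, an N-terminal methyltransferase, as its nearest neighbour at 125433 bases, with 42.2 ± 8.13 CPM in CNTNAP2-203 OE libraries and 30.0 ± 1.65 CPM in controls (log2 fold change 0.49, SE 0.147, edgeR adjusted p 0.151). For LINC02035 it was DIRC2 at 92146 bases, with 36.6 ± 3.65 CPM in CNTNAP2-203 OE libraries and 43.2 ± 2.40 CPM in controls (log2 fold change -0.24, edgeR adjusted p 0.320). For LINC00346 it was ANKRD10, with 64.9 ± 7.46 CPM in CNTNAP2-203 OE libraries and 45.6 ± 1.88 CPM in controls (log2 fold change 0.51, edgeR adjusted p 0.0783), the smallest p of the neighbours. XRCC5, a DNA end-joining subunit and the neighbour of LINC01963, had 388 ± 24.3 CPM in CNTNAP2-203 OE libraries and 303.1 ± 20.5 CPM in controls (log2 fold change 0.36, edgeR adjusted p 0.133). For LINC00472 it was OGFRL1, with 130.0 ± 11.5 CPM in CNTNAP2-203 OE libraries and 158 ± 15.0 CPM in controls (log2 fold change -0.28, edgeR adjusted p 0.262). LINC01578 lies just upstream of CHD2, a chromatin remodeller that it represses in mouse, with starts 17482 bases apart; CHD2 was named after its values were seen. LINC01578 had 29.5, 21.8 and 40.0 CPM in CNTNAP2-203 OE replicates 1, 2 and 3, against 25.4, 33.6 and 30.2 CPM in controls. CHD2 had 75.8, 149 and 45.3 CPM in CNTNAP2-203 OE replicates 1, 2 and 3, against 166, 182 and 174 CPM in controls (log2 fold change -0.95, SE 0.422, edgeR adjusted p 0.329). Within CNTNAP2-203 OE the library highest in LINC01578 was lowest in CHD2 and the reverse, while within control the library highest in LINC01578 was also highest in CHD2 and the lowest also lowest, each over 3 libraries only.

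**Figure D4:**
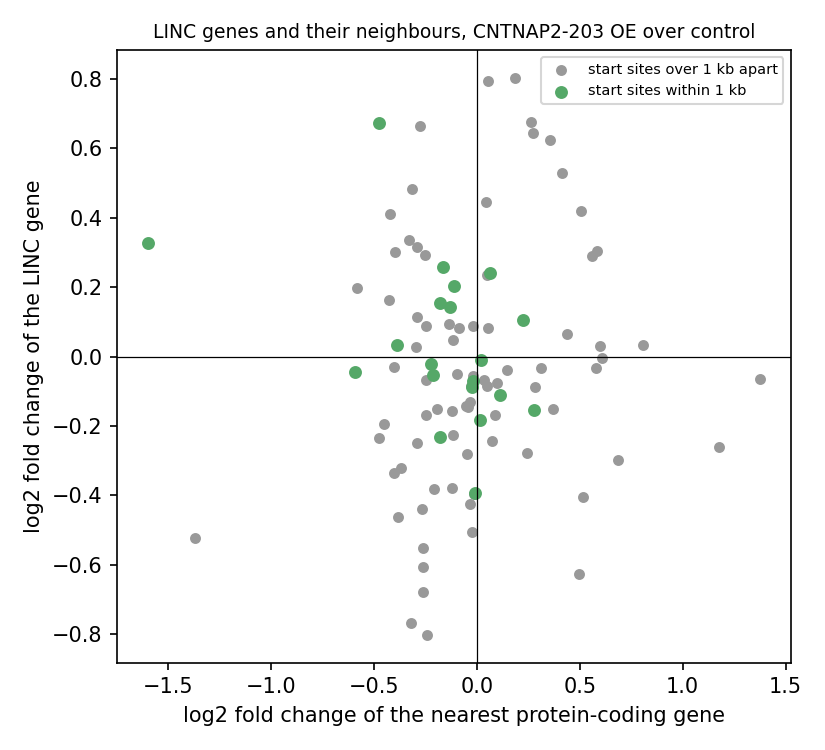
Log2 fold change (CNTNAP2-203 OE over control) of each LINC gene on the vertical axis against that of its nearest protein-coding gene on the horizontal axis, for the 99 pairs with both tested. Green points are the 20 pairs with starts within 1000 bases and grey points the rest; the points scatter around 0 on both axes, with 55 pairs of the same sign.

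The machinery that processes and degrades such transcripts was examined as a list. All 19 genes found in the table from a list of the nuclear RNA exosome and its adaptors were tested. The list also counts XRN2, a nuclease outside the exosome, which had a log2 fold change of 0.00019. None of the 19 passed with edgeR, 7 had an unadjusted p under 0.05 and 1 passed with DESeq2. The shares of all genes by the last 2 measures were 17.2% and 7.11%. Their median log2 fold change was 0.19, with 14 positive and 5 negative, against a median of -0.0038 over all tested genes. EXOSC2, a subunit of the exosome cap, had 69.0 ± 2.70 CPM in CNTNAP2-203 OE libraries and 53.9 ± 1.26 CPM in controls (log2 fold change 0.36, SE 0.0891, edgeR adjusted p 0.103). EXOSC9, a subunit of the exosome ring, had 27.1 ± 6.32 CPM in CNTNAP2-203 OE libraries and 19.0 ± 1.41 CPM in controls (log2 fold change 0.51, edgeR adjusted p 0.196). Its CNTNAP2-203 OE replicates 1, 2 and 3 held 24.3, 22.6 and 34.3 CPM. DIS3, a nuclease of the exosome named after its values were seen, lay the other way, with 67.3 ± 12.1 CPM in CNTNAP2-203 OE libraries and 89.0 ± 7.68 CPM in controls (log2 fold change -0.40, SE 0.148, edgeR adjusted p 0.221). Of the Integrator complex, which ends transcription of many noncoding RNAs, 14 genes were tested, none passed with edgeR or DESeq2, and 3 had an unadjusted p under 0.05. Their median log2 fold change was 0.066, and INTS10 (0.32, edgeR adjusted p 0.178) and INTS9 (0.28, edgeR adjusted p 0.263) had the smallest p.

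The 126 were also described by features that their choice did not use. The 48 genes that overlap no other annotated gene had a median log2 fold change of -0.15, with 34 negative, and the 78 that overlap one had -0.034, with 43 negative. The 25 with a near-identical copy had a median of -0.18, with 7 wholly lower in CNTNAP2-203 OE and 0 wholly higher. Over all tested genes 12.8% were wholly lower and 13.7% wholly higher. Among the 25, 11 share a stretch with another of the 126, LINC01001 and LINC01002 included, so these counts are not of independent genes. The 101 without had a median of -0.053, with 11 wholly lower and 12 wholly higher. The 23 genes with a protein-coding start within 1000 bases had a median of -0.046. In all 23 the groups overlapped and the unadjusted p was above 0.05. Of the 103 others, 18 were wholly lower and 12 wholly higher. Over all tested genes, 26.5% had groups that did not overlap and 17.2% an unadjusted p under 0.05. The 23 had a median level of 0.587 FPKM, against 0.954 FPKM for the 103. Their median coefficient of variation was 21.7% against 18.6% within CNTNAP2-203 OE and 13.9% against 15.5% within control. The 14 single-exon genes had a median of 0.23, against -0.086 for the 112 with several exons. No test was made between these classes.

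In 6 of the 126 (4.76%), 1 library held less CPM than the median of the other 5 divided by 3, against 3.36% of other genes with at least 300 counts. These 6 were named after their values were seen, apart from LINC00319. LINC00205, a chromosome 21 transcript that starts 152 bases from POFUT2, had 924, 854 and 1094 raw counts in CNTNAP2-203 OE libraries, against 1471, 64 and 1529 in controls. POFUT2 had 1273, 1459 and 1128 raw counts in CNTNAP2-203 OE libraries, against 1845, 1301 and 1451 in controls, so the gap in control replicate 2 was not shared by the adjacent gene. LINC02486 had 101, 138 and 69 raw counts in CNTNAP2-203 OE libraries, against 107, 0 and 90 in controls. LINC00319 had 106, 0 and 91 raw counts in CNTNAP2-203 OE libraries, against 125, 109 and 94 in controls. It is 99.938% identical over 3241 bases to the gene listed in GENCODE as CU639417.4, also on chromosome 21, which had 126, 96 and 85 raw counts in CNTNAP2-203 OE libraries, against 149, 106 and 131 in controls.

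LINC00843 had 200, 408 and 16 raw counts in CNTNAP2-203 OE libraries, against 169, 167 and 239 in controls. At this locus AL442003.1 had 23, 32 and 7 raw counts in CNTNAP2-203 OE libraries, against 20, 24 and 33 in controls. PARG there had 1474, 1532 and 981, against 1427, 1495 and 1517. Both were also lowest in CNTNAP2-203 OE replicate 3 and were named after their values were seen. LINC01322 had 121, 122 and 103 raw counts in CNTNAP2-203 OE libraries, against 16, 110 and 122 in controls. LINC01291 varied widely within both groups, with 32, 578 and 114 raw counts in CNTNAP2-203 OE libraries, against 492, 110 and 295 in controls. Libraries of both groups held the low value: CNTNAP2-203 OE replicate 1, 2 or 3 in 3 of the genes and control replicate 1 or 2 in the other 3. For LINC00205 the mean was 24.6 ± 5.81 CPM in CNTNAP2-203 OE libraries and 25 ± 20.2 CPM in controls, a log2 fold change of -0.023 with an SE of 1.0. The part of counting, annotation or the libraries in these gaps was not tested. CNTNAP2-203 OE replicate 3, the library that stood apart, was the lowest of the 6 for 31 of the 126 (24.6%), against 28.3% of other genes with at least 300 counts and 27.6% of all tested genes. It was the highest of the 6 for 24 of the 126 and for 4526 of the 14265 other genes with at least 300 counts.

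**Figure D5:**
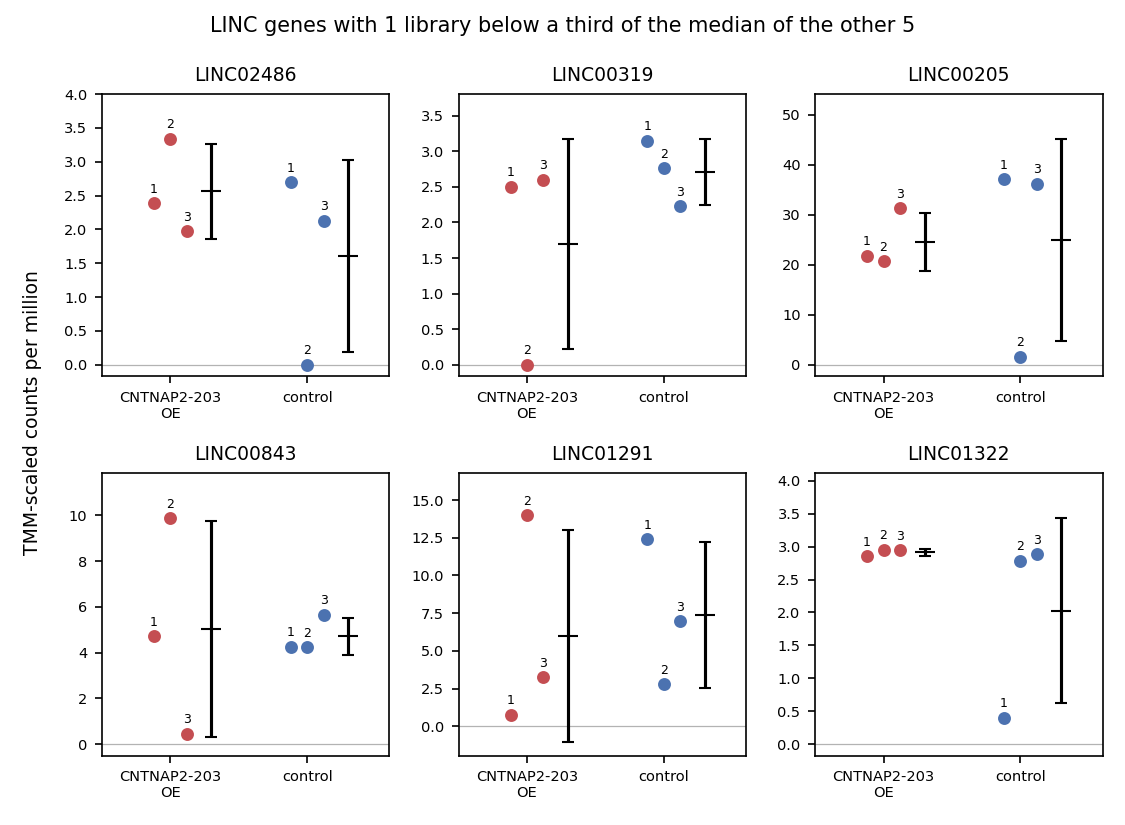
TMM-scaled CPM (vertical axes) of the 6 LINC genes in which 1 library fell below the median of the other 5 divided by 3, by group. Each numbered point is 1 library with its replicate number, and the bar gives the mean and SD of 3 libraries; control replicate 2 of LINC00205 and LINC02486 and CNTNAP2-203 OE replicate 2 of LINC00319 sit at or near 0.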

How the data were processed

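RNA sequencing gave 6 libraries of CAL27 cells, 3 labelled CNTNAP2-203 OE and 3 control, grouped by their titles. The authors deposited raw counts per gene, whole numbers that are not normalized, and log2 values which, judged against the counts, equal log2(FPKM + 1). Per the submitters' processing notes, reads were trimmed with Trim Galore 0.4.4 and the build was hg38. Not given in the sources used here are the aligner, counter, annotation, strand setting and the handling of reads that map to several genes. Per the labels' protocols, ribosomal RNA was depleted and libraries were made with a TruSeq RNA v2 kit, an unstranded kit. The label of control replicate 1 says that its file of reverse reads was missing. No source used here says whether its counts rest on read pairs or on forward reads alone.

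Counts were filtered with filterByExpr (minimum count 10), scaled by TMM and tested with the robust quasi-likelihood test of edgeR 4.0.16 in R 4.3.3, group being the only term, with Benjamini-Hochberg adjustment over 18786 genes at a threshold of 0.05. All 126 LINC genes passed the filter. DESeq2 1.42.0, limma 3.58.1 (voom, and trend on the log2 values), other scaling factors, no filter, a replicate block and each library left out were alternatives. SEs are the absolute log2 fold change over the square root of F. Positions, gene classes, overlaps and nearest protein-coding starts are from GENCODE 29 (GRCh38), near-identical copies from a nucleotide search of its transcripts, and promoters and microRNAs from RefSeq.

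The genes and lists were chosen with earlier results of these data known. Named were the LINC genes past the threshold, the 10 highest and 10 lowest log2 fold changes among those with groups that do not overlap, the 10 highest FPKM, those in a role list, those nearest the limit, neighbours of genes described in full, and the 2 smallest p of the exosome and Integrator lists. Genes overlapping a named gene, and others where stated, were named after their values were seen. An overlapping gene and a sequence are not reported here.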

Additional observations from a re-analysis of the deposited data

How the results depend on the processing

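Of the 126 LINC genes, 2 passed with edgeR. The count was 2 with RLE or upper-quartile factors, without a filter, for genes with at least 1000 counts and for genes that overlap no other gene. It was 5 with DESeq2, 1 with limma-voom (LINC00963), 0 with limma-trend on log2 FPKM and 0 to 3 without 1 library (3 without CNTNAP2-203 OE replicate 3, 0 without any other). Over all genes 262 passed with edgeR, 1063 with DESeq2, 166 with limma-voom and 13 to 560 without 1 library. Neighbours numbered 0, but 8 with DESeq2 and 0 to 5 without 1 library. Exosome and Integrator genes numbered 0, but 1 with DESeq2.

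Libraries of the same replicate number showed no clear shared deviation: deviations from the group means correlated at -0.082, 0.045 and -0.028. Between different numbers the correlations ran from -0.083 to 0.110. These values cannot tell whether libraries of the same number were handled together. With the replicate number as a block, edgeR passed 0 LINC genes and 17 genes in all, LINC00963 had an adjusted p of 0.125 and LINC02035 one of 0.147, and the median log2 fold change of the 126 was -0.083.

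That median, -0.070, was -0.075 with RLE factors, -0.088 with upper-quartile factors, -0.074 with DESeq2, -0.079 with limma-voom, -0.078 without a filter, -0.049 on log2 FPKM and -0.088 to -0.061 without 1 library. It was -0.14 for genes with at least 1000 counts, -0.15 for those that overlap no other gene and, in an alternative added after seeing the data, -0.13 for those with neither an overlap nor a near-identical copy. On log2 FPKM the limma adjusted p was 0.0639 for LINC00963 and 0.0683 for LINC02035, and with voom 0.0535 for LINC02035.

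Gene by gene, the alternatives were read for 41 of the named genes, which do not include LINC00205 or LINC01291. Among the 41, the sign of the log2 fold change was not stable for 7, none of which passed the threshold. Without 1 library it ran between -0.47 and 0.10 for LINC00094, -0.081 and 0.25 for LINC00467, -0.070 and 0.080 for LINC01106, -0.37 and 0.49 for LINC01116, -0.067 and 0.31 for LINC01123, -0.29 and 0.022 for LINC01503, and -0.21 and 0.22 for LINC01578. LINC01106 also had -0.0044 with upper-quartile factors and -0.021 on log2 FPKM, and LINC01578 had -0.0087 with voom and -0.031 on log2 FPKM. Of the other values of the 41 genes, 496 kept direction and side of the threshold, 15 lost a call and 4 gained one. The cause of these changes was not tested.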
